A study of Xenopus laevis with 3 samples.

Results

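The miR-199 and miR-214 sequences of *Xenopus* were followed in small RNA from the dorsal side of *Xenopus laevis* gastrulae. Members were all deposited sequences with a name prefix of xla (*X. laevis*) or xtr (*X. tropicalis*) whose name is of miR-199 or miR-214, whatever the letter, arm or suffix. This gave 5 sequences, of 175 with a *Xenopus* prefix and 1985 in all. They were xtr-miR-199a-5p, xtr-miR-199a-3p_L-1, xtr-miR-214_R+1, xtr-miR-199b_R+1_1ss18GC and xtr-mir-199b-p3_1ss16CT. All 5 had reads, and 3 reached 10 reads in at least 1 library.

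The study asked which miRNAs change when the transcription factor gene *lhx1* or the gene *fry* is depleted. There were 3 libraries. For the Fry-MO library embryos received the morpholino Fry-MO, directed at *fry*, at 20 ng, for the Lhx1-AS library they received the antisense oligonucleotide Lhx1-AS, directed at *lhx1*, at 400 pg, and for the uninjected library they received nothing. Injections went into both dorsal cells at the 4-cell stage, and all 3 groups were collected at stage 10.5, early gastrula. Each library pooled 30 dorsal pieces of 3 experiments. Injected embryos carried a rhodamine tracer and were chosen for red fluorescence on the dorsal side, and no control oligonucleotide was sequenced, so that an effect of the injection or of this choice and an effect of the depletion cannot be told apart. With 1 library per condition no spread between replicates and no p-value can be given. Every interval below is a 95% interval that covers counting error only and compares libraries, not conditions. MiR-199a and miR-214 belong to a cluster that the study picked from these same libraries for the rise of its members. Among such clusters it was then chosen for its known part in the kidney. The direction of both miRNAs here is thus not independent evidence. The study also followed them by qPCR at a later stage and injected mimics, which are not part of these data.

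A miRNA hairpin is cut by Drosha and Dicer into a duplex with a 5p and a 3p arm, and either arm can be loaded into Argonaute, where its seed, bases 2 to 8, pairs with target mRNAs. The mir-199a and mir-214 hairpins lie close together in an intron of dynamin 3 in vertebrates and are made from a common primary transcript, so that 3 mature miRNAs with different targets come from the same RNA. In mice this transcript is prominent in mesenchyme, including that of the developing skeleton, and in zebrafish miR-214 tunes the Hedgehog response by acting on the inhibitor su(fu). In rodent heart muscle miR-199a-5p is known as a repressor of Hif1a and miR-199a-3p as a promoter of proliferation.

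The 5 member sequences are given because arm, seed and the division of reads all follow from them. They are written 5′ to 3′ with T for U, as deposited, and the seed is in capitals.
xtr-miR-199a-5p: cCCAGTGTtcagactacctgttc
xtr-miR-199a-3p_L-1: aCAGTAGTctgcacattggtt
xtr-miR-214_R+1: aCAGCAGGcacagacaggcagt
xtr-miR-199b_R+1_1ss18GC: cCCAGTGTtcagactacctgttcg
xtr-mir-199b-p3_1ss16CT: aCAGTAGTctacacattggtta

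The 5 sequences carried 3 seeds. The seed of miR-199a-5p was also that of the miR-199b sequence, and the seed of miR-199a-3p was also that of the mir-199b-p3 sequence. The seed of miR-214 had 5 of 7 bases in common with that of miR-199a-3p, and the changes T5C and T8G, counted from 1 at the 5′ end with the base of miR-199a-3p first, set them apart. MiR-199a-3p and miR-214 also shared their first 4 bases. No listed sequence with reads and another number had any of the 3 seeds. The 3 most read members ran to 23, 21 and 22 bases in the order printed.

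The xtr-miR-199b_R+1_1ss18GC sequence was identical to miR-199a-5p over the first 23 bases and had 1 base more. Its name marks a change from G to C at base 18, where miR-199a-5p also has C. Its last base is G, where longer forms listed under another species' name that begin with the same 23 bases have T. Whether it is a longer form of miR-199a-5p was thus not settled. Its values and those of miR-199a-5p were in part not whole, which is how a read divided among listed sequences appears. Together the miR-199a-5p and miR-199b sequences had 2205 reads in the Fry-MO, 1323 in the Lhx1-AS and 556 in the uninjected library, all whole numbers. On the 3p side, miR-199a-3p and mir-199b-p3 together had 1251 reads in the Fry-MO, 216 in the Lhx1-AS and 141 in the uninjected library. The sequence named mir-199b-p3 shared its first 10 bases with miR-199a-3p and differed at the next, with A for G. After that base it was again the same and had 1 base more at the 3′ end. Both miR-199b sequences were at the limit of detection, with 5, 0.5 and 1.5 reads of miR-199b in the Fry-MO, Lhx1-AS and uninjected libraries and 0.5, 0 and 0 reads of mir-199b-p3. A count of 3 reads, taken as the limit that a count of 0 allows, was worth 3.42 normalized counts in the Fry-MO, 3.88 in the Lhx1-AS and 3.26 in the uninjected library. For the sequence named miR-199b the ratio of the Fry-MO to the uninjected library was 3.50, with an interval of 0.496 to 60.2. A difference was thus not detectable at this depth. For mir-199b-p3 no fold can be given.

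The 3 libraries were unlike in content, which bears on every ratio below. They held 4493357 raw reads in the Fry-MO, 4805539 in the Lhx1-AS and 5802603 in the uninjected library, of which 108041, 56026.1 and 133894 were assigned to the listed sequences. Of the 3 most read sequences, 1 was xla-miR-427_R+1_1ss10TC of the early embryo and the others were predicted sequences without a miRNA name. Together they took 28.1% of the listed reads in the Fry-MO, 54.0% in the Lhx1-AS and 75.1% in the uninjected library. The miR-427 sequence itself had 13081, 15455 and 38438 reads in the same order. Sequences with a *Xenopus* name took 59.4%, 50.1% and 42.0% in the same order. Normalized counts are the raw reads divided by a library size parameter of the authors, which was 0.877 for the Fry-MO, 0.773 for the Lhx1-AS and 0.921 for the uninjected library. In bulk tissue, more cells that make a miRNA and more of it per cell cannot be told apart.

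The 5 members together took a larger part of the listed reads in both injected libraries. Their share was 3.27% (3.16 to 3.38) in the Fry-MO library, 2.77% (2.63 to 2.91) in the Lhx1-AS and 0.531% (0.493 to 0.571) in the uninjected library, from 3530, 1551 and 711 reads. These intervals are of the Clopper-Pearson type. The uninjected share lay below both others.

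MiR-199a-5p was the most read member in every library, with 2508.6 normalized counts in the Fry-MO, 1709.8 in the Lhx1-AS and 602.3 in the uninjected library. These rested on 2200, 1322.5 and 554.5 reads. Among the *Xenopus*-named sequences it ranked 8th in the Fry-MO, 3rd in the Lhx1-AS and 5th in the uninjected library. Its part of the *Xenopus*-named reads was 3.43%, 4.71% and 0.987% in the same order, so that a high rank went with a small share.

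MiR-199a-3p, by its name the other arm of the same hairpin, had 1425.9 normalized counts in the Fry-MO, 279.3 in the Lhx1-AS and 153.2 in the uninjected library. The reads were 1250.5, 216 and 141, and the ranks 13, 14 and 18. The Fry-MO library thus stood well above both others, and the counting intervals of all 3 levels were apart.

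MiR-214, the third product of the cluster, had few reads. It had 84.4 normalized counts in the Fry-MO, 15.5 in the Lhx1-AS and 15.2 in the uninjected library, from 74, 12 and 14 reads, and ranked 52, 74 and 59. The counting intervals of the Lhx1-AS (8.02 to 27.1) and uninjected (8.31 to 25.5) levels covered each other nearly whole, and that of the Fry-MO level (66.3 to 105.9) lay above both. The order by reads was the same in every library, with miR-199a-5p above miR-199a-3p, miR-214 and the 2 sequences of miR-199b. Only the last 2 did not separate beyond their counting error. Whether different sequences were captured equally well was not tested.

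**Figure D1:**
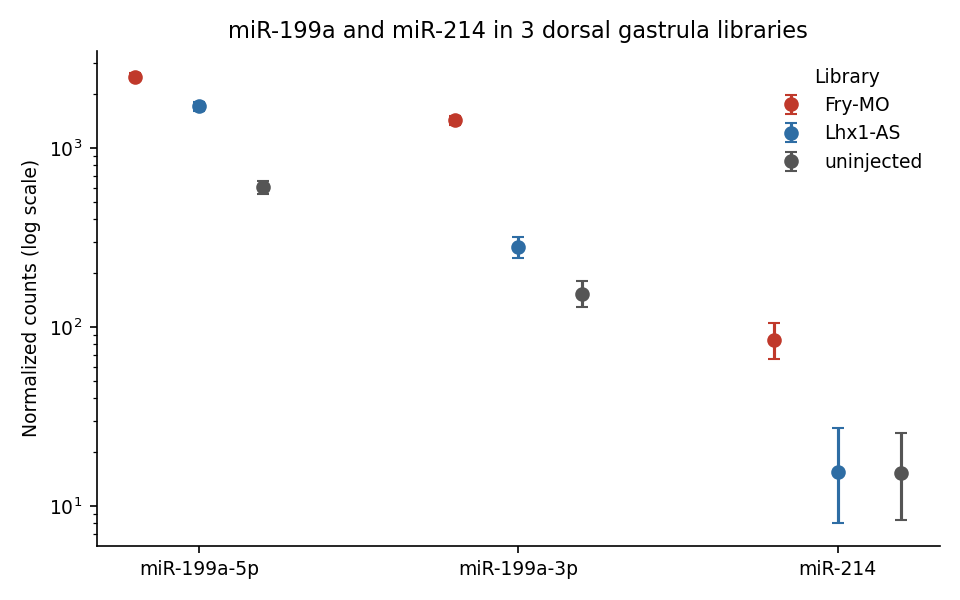
Normalized counts (log scale) of the 3 most read members in the Fry-MO, Lhx1-AS and uninjected libraries, 1 point per library, with bars for the 95% Poisson counting interval of the reads. MiR-214 had 84.4 normalized counts in the Fry-MO library, against 15.5 in the Lhx1-AS and 15.2 in the uninjected library, while miR-199a-5p separated all 3 libraries.

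All 3 members with enough reads rose by 2-fold or more in the Fry-MO library against the uninjected library. The ratio was 9.31 (7.82 to 11.2) for miR-199a-3p. It was 5.55 (3.11 to 10.6) for miR-214 and 4.16 (3.79 to 4.58) for miR-199a-5p. Such a rise was common in this comparison, as 64 of 93 *Xenopus*-named sequences with at least 10 reads in either library, or 68.8%, were at least 2-fold higher and 9 were at least 2-fold lower. The median log2 ratio was 2.47 over the 3 members and 2.01 over all 93. The miR-199a-5p ratio was near that middle, with 46 of 93 sequences at or above it, while 38 were at or above miR-214 and 25 at or above miR-199a-3p. The interval of miR-199a-3p did not meet that of miR-199a-5p, so that the 5p and 3p sequences were higher by different factors. Mature reads do not show which mir-199 hairpin they came from.

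In the Lhx1-AS library 1 of the 3 members was at least 2-fold higher than in the uninjected library, against a background of 26 of 79 sequences, or 32.9%, with 5 lower. The member was miR-199a-5p, with a ratio of 2.84 (2.57 to 3.14). MiR-199a-3p had a ratio of 1.82 (1.47 to 2.27), which excluded 1 but held 2. The ratio of miR-214 was 1.02 (0.431 to 2.38), which leaves room for a change of 2-fold in either direction. The median log2 ratio was 0.87 over the members and 0.35 over all 79, and 18, 29 and 49 sequences had ratios at or above those of miR-199a-5p, miR-199a-3p and miR-214. The cluster thus spread from a clear rise to no detectable difference in this library. Both comparisons share the uninjected library, so that their values are given side by side and not correlated.

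The injected libraries were therefore also set against each other. MiR-214 was 5.44-fold higher (2.94 to 11.0) and miR-199a-3p 5.11-fold higher (4.42 to 5.93) in the Fry-MO than in the Lhx1-AS library. MiR-199a-5p was 1.47-fold higher (1.37 to 1.57) there and did not reach 2-fold. At least 2-fold higher were thus 2 of 3 members, against 53 of 96 sequences, or 55.2%, with 9 lower. The median log2 ratio was 2.35 over the members and 1.38 over all 96. Of the 96, 60 had ratios at or above that of miR-199a-5p, 26 at or above that of miR-199a-3p and 24 at or above that of miR-214. With the parameter of the authors, the 2 less read members differed more between the injected libraries than the median sequence, and the most read member less.

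**Figure D2:**
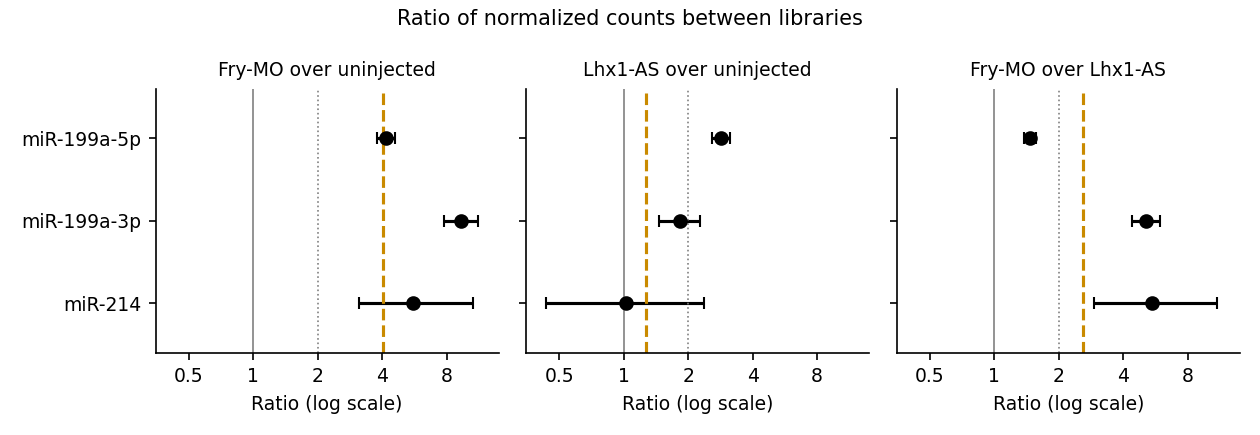
Ratios of normalized counts (log scale) of the 3 most read members in the 3 comparisons of libraries, with bars for 95% counting intervals. The solid line marks 1, the dotted line 2-fold and the dashed line the median of all *Xenopus*-named sequences compared. The interval of miR-199a-3p lay to the right of that of miR-199a-5p for Fry-MO over uninjected and to its left for Lhx1-AS over uninjected.

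These ratios depend on how the libraries are scaled to each other. The direction with Fry-MO against uninjected was the same for all 3 members under the 7 scalings computed, at 1.70-fold to 5.89-fold for miR-199a-5p, 3.80-fold to 13.2-fold for miR-199a-3p and 2.27-fold or more for miR-214. Scaling to the listed reads less the 3 most read sequences took miR-199a-5p to 1.70-fold, below 2-fold. For Lhx1-AS against uninjected, miR-214 lay at 0.961 with DESeq2 size factors and at 2.05 with scaling to all listed reads, so that its direction was not fixed. MiR-199a-3p was at 3.66-fold and 3.07-fold when scaled to all listed or to the *Xenopus*-named reads, past 2-fold. Between the injected libraries miR-199a-5p changed direction, at 0.863 when scaled to all listed reads, 0.728 when scaled to the *Xenopus*-named reads and 0.552 when scaled without the 3 most read sequences.

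**Figure D3:**
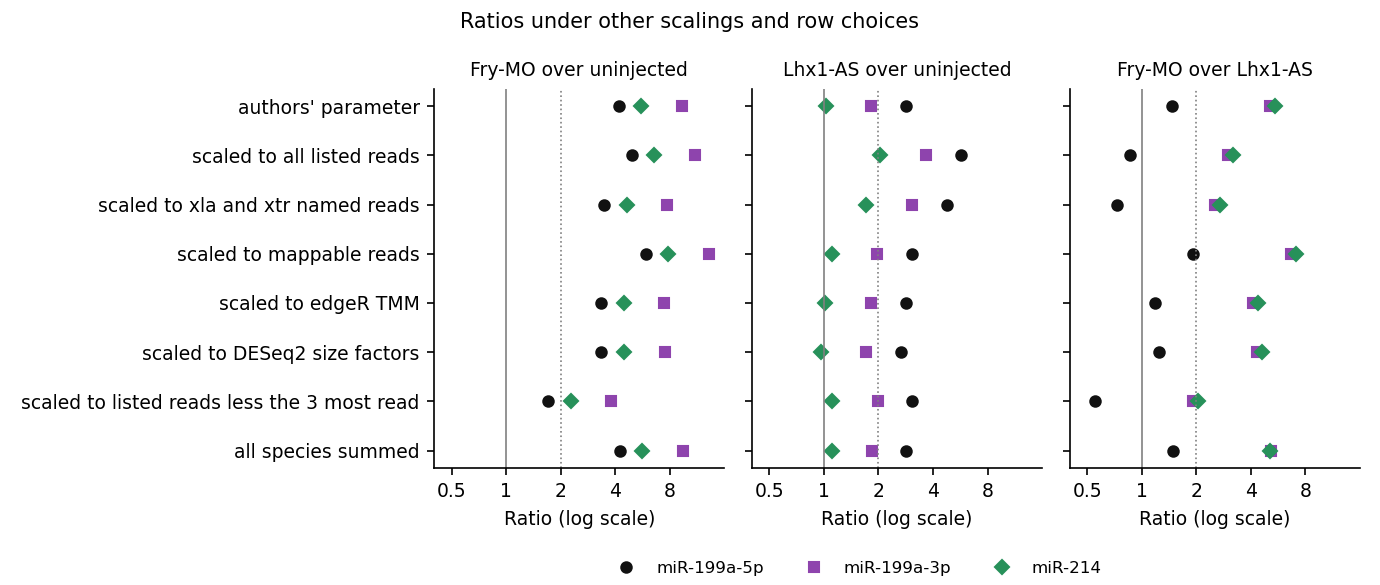
Ratios (log scale) of the 3 most read members in the 3 comparisons under the parameter of the authors, 6 other scalings and with sequences of all species names summed. The spacing of the 3 symbols is the same under every scaling, while their place against 1 (solid line) and 2-fold (dotted line) moves, as for miR-199a-5p in Fry-MO over Lhx1-AS, at 1.47 with the parameter of the authors and 0.552 without the 3 most read sequences.

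The balance of arms inside a library does not depend on scaling. It is a balance of reads by name, and whether both arms came from the same mir-199 hairpin was not tested. Reads of miR-199a-5p made up 63.8% (62.1 to 65.4) of the reads of both miR-199a arms in the Fry-MO library, 86.0% (84.1 to 87.7) in the Lhx1-AS and 79.7% (76.5 to 82.7) in the uninjected library. There were thus 1.76 reads of the 5p arm per read of the 3p arm in the Fry-MO, 6.12 in the Lhx1-AS and 3.93 in the uninjected library. The 3 intervals did not meet. The 5p arm led in every library, with the least lead in Fry-MO and the largest in Lhx1-AS.

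The odds ratio of 5p to 3p reads was 0.448 (0.365 to 0.547) for the Fry-MO over the uninjected library and 1.56 (1.22 to 1.98) for the Lhx1-AS over the uninjected library. Between the injected libraries, Fry-MO over Lhx1-AS, it was 0.288 (0.244 to 0.338). The intervals are conditional exact ones on reads rounded to whole numbers. The balance of the arms thus differed in opposite directions from that of the uninjected library. With the sequences of all species names added to their arms the 5p shares were 62.6%, 85.3% and 79.0% in the Fry-MO, Lhx1-AS and uninjected libraries, and adding the miR-199b sequences gave 63.8%, 86.0% and 79.8%.

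Of the other *Xenopus* hairpins, 15 had sequences from both arms and at least 20 reads in each library. In 10 of these an unnamed arm was taken to be the one opposite the named arm. For Fry-MO over uninjected, the interval of the 5p to 3p odds ratio lay below 1, as for miR-199a, in 1 of the 15, above 1 in 5 and held 1, or could not be bounded for want of reads, in 9. For Lhx1-AS over uninjected it lay above 1, as for miR-199a, in none of the 15 and below 1 in 2. It held 1 or could not be bounded in 13. For Fry-MO over Lhx1-AS it lay below 1 in none and above 1 in 3, and held 1 or could not be bounded in 12. The hairpin that shared the direction of miR-199a with Fry-MO was mir-22, with 0, 0 and 4 reads of its 5p arm in the Fry-MO, Lhx1-AS and uninjected libraries. Many of the 15 had almost no reads of the lesser arm, and only 8 hairpins, mir-199a among them, had at least 5 reads of each arm in every library.

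In the 7 other hairpins of this kind, the interval for Fry-MO over uninjected lay above 1 in 4 (mir-126, mir-17, mir-181a and mir-30a) and held 1 in 3. Mir-126, which is known from endothelium, had a 5p share of 72.5% in the Fry-MO, 20.5% in the Lhx1-AS and 33.6% in the uninjected library. Its odds ratio was 5.20 (3.53 to 7.76) for Fry-MO over uninjected and 0.512 (0.289 to 0.898) for Lhx1-AS over uninjected, each opposite to that of miR-199a. The 5p share of mir-92a, a member of the mir-17-92 cluster, was 69.5%, 71.1% and 72.7% in the same order, with both odds ratios around 1. A different arm balance with Fry-MO was therefore found in other hairpins too, and none of the 7 had an interval on the side of miR-199a.

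**Figure D4:**
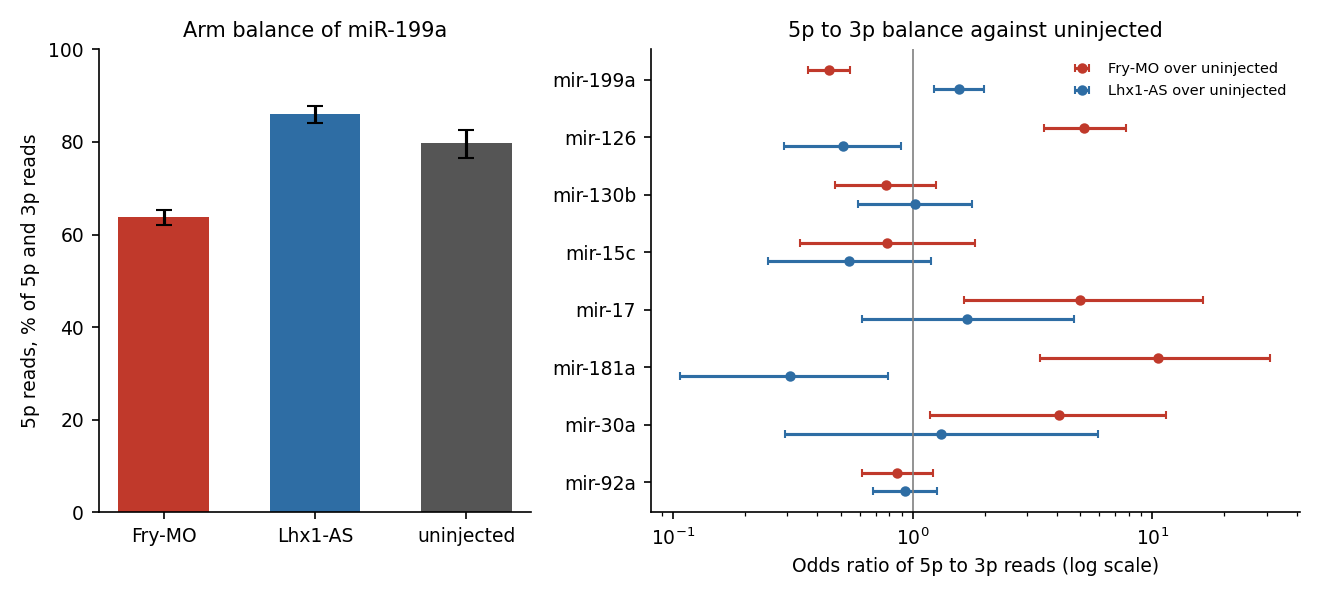
Left, reads of the 5p arm as a percentage of the reads of both arms of miR-199a in the 3 libraries, with Clopper-Pearson intervals at 95%. Right, odds ratios of 5p to 3p reads (log scale) against the uninjected library for the 8 hairpins with at least 5 reads of each arm in every library, with conditional exact intervals at 95%. Mir-199a lay at 0.448 with Fry-MO and 1.56 with Lhx1-AS, and mir-126 at 5.20 and 0.512.

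The balance between miR-214 and miR-199a was also measured within libraries. MiR-214 made up 2.10% (1.65 to 2.63) of the reads of the 3 members in the Fry-MO library, 0.774% (0.401 to 1.35) in the Lhx1-AS and 1.97% (1.08 to 3.29) in the uninjected library. Its odds against both miR-199a arms were 1.07 times (0.593 to 2.06) those of the uninjected library in the Fry-MO library and 0.388 times (0.163 to 0.909) in the Lhx1-AS library. Over the Lhx1-AS library the odds in the Fry-MO library were 2.75 times (1.48 to 5.58). The share was thus lower in the Lhx1-AS library than in either other, from only 12 reads, and a difference between the Fry-MO and uninjected libraries was not detectable.

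The same balance was split by the arm of miR-199a. The odds of miR-214 against miR-199a-3p were 1.07 times (0.563 to 2.19) as high in the Fry-MO as in the Lhx1-AS library, against 3.71 times (1.99 to 7.52) for miR-199a-5p. Against miR-199a-3p the odds ratio was 0.597 (0.324 to 1.18) for Fry-MO over uninjected and 0.560 (0.229 to 1.35) for Lhx1-AS over uninjected. All 3 odds ratios against the 3p arm held 1, with intervals that leave room for a 2-fold difference.

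Sequences named miR-199 or miR-214 were also listed under names of other species. Not all are forms of the members. A rat-named mir-199a-p5 sequence, at 0.5 reads in the Lhx1-AS library alone, shared a run of only 4 bases with any member. It was counted in the 5p sums over all species names. There were 16 such sequences with 155.1 reads in the Fry-MO, 33.3 in the Lhx1-AS and 14 in the uninjected library, or 4.21% (3.59 to 4.91), 2.10% (1.46 to 2.94) and 1.93% (1.06 to 3.22) of all reads under names of miR-199 or miR-214. Most fell into a few forms, which are shown because they differ from the members by a substitution, by length or by arm. The prefix says which species' listed sequence fitted the read best and does not say which organism the RNA was from. The prefixes used below are ola for medaka, mmu for mouse and tgu for zebra finch.
ola-miR-199a-5p_R+1_1ss10CT: cCCAGTGTttagactacctgttc
mmu-miR-199b-5p_R+1: cCCAGTGTttagactacctgttct
ola-miR-199a-3p_R+1: aCAGTAGTctgcacattggttat
ola-miR-199a-3p_R+2: aCAGTAGTctgcacattggttatt
tgu-miR-214-5p: tGCCTGTCtacacttgctgtgc

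The first pair of these had the change C10T against xtr-miR-199a-5p, counted from the 5′ end with the base of the *Xenopus* sequence first, and is otherwise the same over the shared length. The mouse-named sequence had 11 reads in the Fry-MO, 3 in the Lhx1-AS and 1 in the uninjected library, and the medaka-named one 37, 12 and 4. Together they made up 2.13% (1.57 to 2.81) of the reads of the miR-199 5p arm in the Fry-MO library, 1.12% (0.628 to 1.84) in the Lhx1-AS and 0.891% (0.290 to 2.07) in the uninjected library. The odds ratio of this form was 1.92 (1.05 to 3.71) for Fry-MO over Lhx1-AS and 2.42 (0.961 to 7.82) for Fry-MO over uninjected, so that only the first excluded 1. The changed base lies outside the seed, so that both forms have the seed of the member. The medaka-based name marks the change, while the mouse-based name marks no substitution. The T is thus that of the listed mouse sequence, and where these reads came from was not tested.

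The 2 longer 3p forms began at the same base as xtr-miR-199a-3p_L-1 and ended 2 and 3 bases later. They had 92 reads in the Fry-MO, 15 in the Lhx1-AS and 8 in the uninjected library, or 6.85%, 6.49% and 5.37% of the reads of these 3p forms. Their odds ratio to the member was 1.30 (0.614 to 3.16) for Fry-MO over uninjected, 1.22 (0.472 to 3.42) for Lhx1-AS over uninjected and 1.06 (0.596 to 2.01) for Fry-MO over Lhx1-AS. No difference in 3′ length was detectable.

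The opposite arm of mir-214 was read under the zebra finch name, with 7 reads in the Fry-MO, 0 in the Lhx1-AS and 1 in the uninjected library. The member xtr-miR-214_R+1, the 3p arm, thus made up 91.4% (83.0 to 96.5) of the reads of both arms in the Fry-MO, 100% (73.5 to 100) in the Lhx1-AS and 93.3% (68.1 to 99.8) in the uninjected library. A rat-named 5p sequence with other bases, at 0.5 reads in the Lhx1-AS library alone, was left out. The 3p arm led in all 3 libraries, and the intervals covered each other.

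The miRNAs whose pattern over the 3 libraries was nearest to each member were found by the distance between pairs of log2 ratios to the uninjected library, among 74 *Xenopus*-named sequences with at least 50 reads, with a pseudocount of 1 normalized count. For miR-199a-5p they were miR-25 (0.297), miR-221 (0.320) and miR-17-5p (0.339). For miR-199a-3p they were miR-425-5p (0.363), miR-125b (0.469) and miR-301 (0.574). For miR-214 they were miR-10a (0.167), miR-30d (0.319) and miR-200a (0.363). None of the nearest 3 of any member was another member. Counted from miR-199a-5p, the other arm ranked 13th and miR-214 19th, at 1.32 and 1.52, and counted from miR-199a-3p miR-214 ranked 17th, at 1.17. The distances take no account of counting error, which is wide for miR-214, so that these ranks do not show that the patterns of the members differ.

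The miR-23b cluster, made up of miR-23b, miR-27b and miR-24a and also followed by the study in the kidney, was higher by at least 2-fold for 3 of 3 sequences in both injected libraries, with a median log2 ratio of 4.50 for Fry-MO and 3.14 for Lhx1-AS. Over all sequences compared, 68.8% were so with Fry-MO, at a median of 2.01, and 32.9% with Lhx1-AS, at a median of 0.35. The miR-23b cluster was likewise selected on these libraries. Of miRNAs known from mesenchyme and smooth muscle (miR-143, miR-145, miR-140, miR-29, miR-22 and miR-125b), 5 of 5 sequences compared rose by 2-fold or more in the Fry-MO against the uninjected library, with a median log2 ratio of 3.57, and 2 of 4 did so in the Lhx1-AS library, with a median of 1.15, to be read against the same shares and medians over all sequences. MiR-143 of smooth muscle had 939.6 normalized counts in the Fry-MO, 98.3 in the Lhx1-AS and 49.97 in the uninjected library. MiR-22-3p, the most read of the list, had 6091.3, 1228.2 and 2063.8 in the same order. Its ratio was 2.95 (2.80 to 3.11) for Fry-MO over uninjected and 0.595 (0.550 to 0.644) for Lhx1-AS over uninjected. The whole list summed to 7777.1, 1553.4 and 2199.6, and miR-22-3p made up most of each sum. The sum was lower in the Lhx1-AS than in the uninjected library because miR-22-3p was. The other sequences of the list compared for Lhx1-AS over uninjected were higher. Their ratios were 1.97 for miR-143, 2.51 for miR-125b and 6.84 for miR-145, each with an interval above 1. MiR-21, also on that list, was not among the *Xenopus*-named sequences analysed here.

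Markers of blood, endothelium and neural tissue, which a dorsal gastrula has not yet formed, were at least 2-fold higher along with the members in the Fry-MO library, in a comparison where 68.8% of all *Xenopus*-named sequences were. Blood miRNAs (miR-142, miR-144, miR-451, miR-150 and miR-223) summed to 3989.8 normalized counts in the Fry-MO, 249.5 in the Lhx1-AS and 244.4 in the uninjected library, with 3 of 3 compared sequences higher in Fry-MO and 0 of 3 in Lhx1-AS, where the share over all sequences was 32.9%. Endothelial miR-126 summed to 1450.4, 195.2 and 148.8 in the same order, with 2 of 2 sequences higher in Fry-MO and 0 of 2 in Lhx1-AS. Neural miRNAs (miR-9, miR-124, miR-138 and miR-219) summed to 70.7, 26.7 and 13.8, with 3 of 3 compared sequences higher in Fry-MO and 1 of 1 in Lhx1-AS. MiR-138, the 1 compared in Lhx1-AS, had 21, 10 and 0 reads. Its calls rest on the count of 0 being taken as 3 reads. Liver miR-122, at 22.8, 29.7 and 13.0, was not 2-fold higher in Fry-MO, with a ratio of 1.75 (0.815 to 3.93), and was so in Lhx1-AS, with 2.28 (1.09 to 5.03). Of the muscle markers miR-133 summed to 11.4, 1.29 and 1.09, with too few reads for a comparison. MiR-1 and miR-206 were not among the *Xenopus*-named sequences analysed here. Early embryo miRNAs (miR-427, miR-428 and miR-302) summed to 17527, 22602 and 50207, most of it from miR-427. At least 2-fold lower were 3 of 5 compared sequences in each injected library, all of miR-427. Over all sequences compared, 9 of 93 were so with Fry-MO and 5 of 79 with Lhx1-AS. At least 2-fold higher were 0 of 5 early embryo sequences in Fry-MO and 1 of 5 in Lhx1-AS. The last was miR-428, with a ratio of 0.914 (0.525 to 1.58) for Fry-MO over uninjected and 3.34 (2.19 to 5.21) for Lhx1-AS over uninjected.

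Names known from mammals only also differed between the libraries. The DLK1-DIO3 miRNAs had 1202 reads in the Fry-MO, 62.5 in the Lhx1-AS and 42 in the uninjected library, or 1.11%, 0.112% and 0.0314% of listed reads, and 20 of the 28 numbers on the list were found. The rodent X-linked miRNAs, all 11 numbers of which were found, had 21, 1818 and 12 reads, or 0.0194%, 3.25% and 0.00896%. The first list thus stood out in the Fry-MO and the second in the Lhx1-AS library, and their part, like that of the tissue markers, in the values of miR-199a and miR-214 was not tested.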

How the data were processed

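Small RNA of 3 pooled libraries was sequenced by the authors in reads of 40 bases. Reads of 15 to 32 bases were matched by ACGT101-miR 4.2 against miRBase, *X. laevis* and other chordate genomes, with release and builds not given in the sources used here. Raw values, deposited per sequence, are expected counts, since reads that match more than 1 listed sequence are shared out (488 sequences are not whole within 1e-06). The authors also deposited a normalized signal, which is that value over a library size parameter, with 0 written as 0.001. No source used here gives the derivation of that parameter. The deposited summary gives reads per step. Of 1987 indexed sequences, 2 lines were not analysed here.

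Ratios were taken from the normalized signal for sequences with at least 10 reads in either library, and called at 2-fold or 0.5-fold. For calls and medians a library with 0 reads was set to 3 reads. Intervals at a level of 95% (Clopper-Pearson for shares and ratios, Poisson for levels, conditional exact for odds ratios) cover counting error only and are exact only where reads are whole. No test between conditions is possible. The sequences named are all members, the 3 nearest patterns of each, the mesenchyme list, the miR-23b cluster, the cell type markers and miR-427; miR-126, mir-92a and mir-22 as hairpins and the forms under other names were chosen after their values were seen. Members and lists were chosen with earlier results of these data known. The intervals and calls were tested on simulated whole counts with Poisson error only, which covers neither divided reads nor spread between replicates. The tools were scipy 1.17.1, numpy 2.4.6, pandas 2.3.3 and matplotlib 3.10.9 under Python 3.11.15. EdgeR 4.0.16 (TMM) and DESeq2 1.42.0, in R 4.3.3, gave scaling factors on rounded reads only. The alternatives were other scalings, read minimums, a fold of 1.5, an interval that excludes 1, all species names summed and the miR-199b sequences added.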

Additional observations from a re-analysis of the deposited data

How the results depend on the processing

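No paired analysis was possible because each condition has 1 library. Of 63 alternative values, 33 moved by less than their counting interval and 30 by more. Scaling to all listed reads, to *Xenopus*-named reads, to mappable reads, with TMM, with DESeq2 or to the listed reads less the 3 most read (chosen after seeing the data, as was adding the miR-199b sequences) gave, for Fry-MO over uninjected, 4.92, 3.47, 5.89, 3.34, 3.35 and 1.70 for miR-199a-5p. All but the first of these scalings moved miR-199a-3p, to 7.76, 13.2, 7.47, 7.48 and 3.80, and the last moved miR-214, to 2.27. For Lhx1-AS over uninjected the first pair gave 5.70 and 4.77 for miR-199a-5p and 3.66 and 3.07 for miR-199a-3p. For Fry-MO over Lhx1-AS the 6 scalings gave 0.863, 0.728, 1.92, 1.18, 1.25 and 0.552 for miR-199a-5p and 3.00, 2.53, 6.68, 4.11, 4.36 and 1.92 for miR-199a-3p; miR-214 moved to 2.70 with *Xenopus*-named reads and 2.05 without the 3 most read. A scaling shifts every log2 ratio by the same amount, by -1.29 to 0.50 for Fry-MO over uninjected, -0.09 to 1.01 for Lhx1-AS over uninjected and -1.41 to 0.39 for Fry-MO over Lhx1-AS, so that by construction no scaling changed the spacing of the members or the arm balance.

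The background moved as well. Fry-MO over uninjected had 64 higher and 9 lower with the parameter of the authors, 42 and 23 without the 3 most read and 3 lower with mappable reads. Lhx1-AS over uninjected had 26 and 5, against 50 and 0 with all listed, 44 and 2 with *Xenopus*-named reads and 24 and 9 with DESeq2, 12 higher with at least 50 reads, and 3 lower with mappable reads or without the 3 most read. It had 14 lower at 1.5-fold, 10 with no read minimum and 11 by an interval that excludes 1. Fry-MO over Lhx1-AS had 53 and 9, against 41 and 21, 36 and 26 with the first pair of scalings, 24 and 35 without the 3 most read and 1 lower with at least 50 reads. The 12 and 14 reads of miR-214 in the Lhx1-AS and uninjected libraries limit what can be said of it, and the miR-199b sequences, with 5 reads or fewer in each library, allow no call.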
